A study of Xenopus tropicalis with 45 samples.

Results

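The regions described here are 6077 of the 15695 genomic intervals bound by the transcription factor Sox3 in whole *X. tropicalis* embryos at st9 (late blastula). They were chosen by the absence of a measured signal. A Sox3 peak was selected when it shared no base with any Hdac1 peak listed for untreated embryos at st8, st9 or st10.5. The 9618 Sox3 peaks that share a base with such an Hdac1 peak serve as the comparison. The Sox3 list and the 3 untreated Hdac1 lists keep peaks that 2 replicates gave reproducibly, at an irreproducible discovery rate (IDR) of 0.05, and such Hdac1 peaks are called replicated below. The working name of the set, Sox3 peaks never bound by Hdac1, goes further than the data. Of the 6077 regions, 4370 (71.9%, Wilson 95% confidence interval 70.8 to 73.0%) met an Hdac1 peak in at least 1 of 4 further Hdac1 lists. Of the other Sox3 peaks, 98.0% did. Each of these 4 lists is from a single library of embryos kept in a deacetylase inhibitor or in its solvent. The 6077 regions are therefore called Sox3 peaks outside the replicated Hdac1 peaks.

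Sox3 is a SoxB1 factor that binds DNA through an HMG box. It is loaded into the *Xenopus* egg, is present throughout the cleaving embryo and later marks ectoderm with neural potential. Hdac1 and its close relative Hdac2 are class I histone deacetylases, which remove acetyl groups from histone tails. They do not read DNA sequence themselves and act within complexes, such as NuRD and Sin3, that are brought to chromatin by other proteins.

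All embryos were wildtype, fertilized in vitro and staged by the Nieuwkoop and Faber table. Sox3 was precipitated from untreated whole embryos at st9 (2 replicates), and Hdac1 from untreated whole embryos at st8, st9 and st10.5 (early gastrula, 2 replicates each). Single libraries gave Hdac2 lists of untreated whole embryos at st9 and st10.5, and Hdac1 lists at both stages of whole embryos kept from the 4-cell stage in 100 nM trichostatin A (TSA, an inhibitor of many histone deacetylases) or in its solvent DMSO. Acetylated histone H3 (pan-H3Kac, which does not separate lysines) was mapped at st10.5 in untreated whole embryos and in DMSO-treated explants of the animal cap (AC, presumptive ectoderm) and vegetal mass (VG, presumptive endoderm), with 2 replicates each. RNA was sequenced from AC and VG explants at st10.5 after TSA or DMSO, and in a second experiment after 10 mM valproic acid (VPA, another deacetylase inhibitor) or water, with 2 libraries in each of the 8 groups. Nothing in the labels says whether replicates came from separate clutches, so p-values measure the spread between these libraries only. No reads come with the peak lists, and their depth is unknown. The intervals given for shares cover counting error only, and neighbouring peaks of one list are not replicates, so no test is attached to them.

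The regions outside the replicated Hdac1 peaks were the weaker part of the Sox3 list. The list gives each peak a signal value in each replicate and a combined score, which is the sum of both and has no stated unit. The combined score of the 6077 regions ran from 11.7 to 138 with a median of 17.4 (interquartile range 14.6 to 23.0). The other Sox3 peaks had a median of 24.9 (17.6 to 40.0). Both replicates gave the same picture. The median signal value of the regions was 8.72 in one replicate and 8.69 in the other, against 12.6 and 12.6 for the other Sox3 peaks. Within a region the replicate values differed by a median of 11.8% of their mean, close to the 11.4% of the other peaks. Across peaks the log2 replicate values correlated with r = 0.89 over the 6077 regions and with r = 0.95 over the other 9618, a description over peaks that share both libraries.

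The share of Sox3 peaks without a replicated Hdac1 peak fell steadily as the Sox3 score rose. With the list divided into 10 classes by score, 936 of 1570 peaks of the lowest class lay outside (59.6%, 57.2 to 62.0%). In the highest class, 152 of 1568 did (9.69%, 8.33 to 11.3%). The regions were also shorter, with a median length of 438 bp (377 to 544 bp) against 588 bp (473 to 766 bp). By 4 classes of peak length, the share outside went from 66.7% among the shortest peaks to 43.8%, 28.2% and 16.1% among the longest. A longer peak has more bases that can meet another list, and the part of length and of score in the membership was not tested. The regions lay on all 10 chromosomes. Their share of the Sox3 peaks was between 32.6% on chromosome 10 and 41.2% on chromosome 2.

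**Figure D1:**
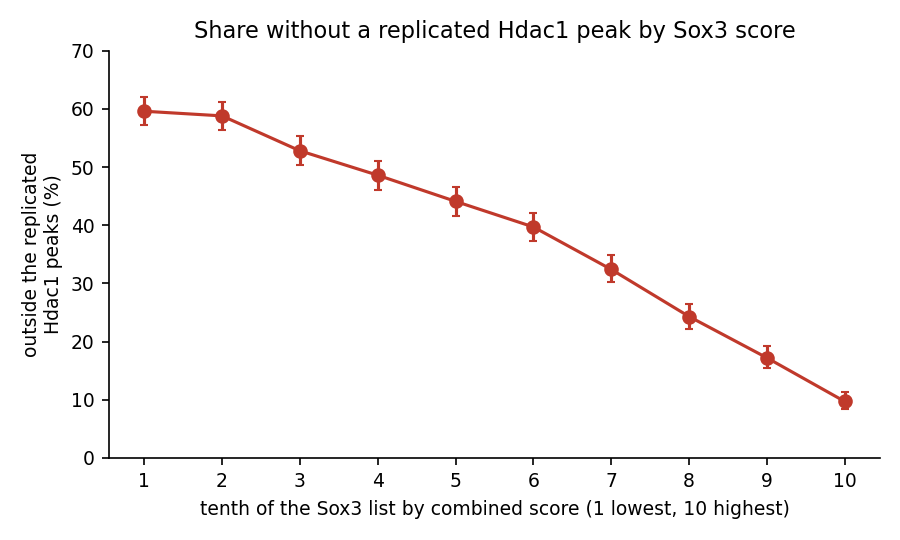
Share of Sox3 peaks without a replicated Hdac1 peak (y axis, percent) in 10 classes of the Sox3 list ordered by combined score (x axis, 1 lowest to 10 highest). Points are shares and bars are Wilson 95% intervals. The share falls from 59.6% to 9.69%.

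Each stage of the Hdac1 series removed a different number of Sox3 peaks from the set. The st8 list met 504 Sox3 peaks (3.21%), the st9 list 4228 (26.9%) and the st10.5 list 8806 (56.1%). Of the 9618 peaks removed, 5250 met the st10.5 list alone. Most of the 6077 regions lay far from the line. The gap to the nearest replicated Hdac1 peak of any stage had a median of 23488 bp (interquartile range 5820 to 77646 bp), while 432 regions lay within 1 kb of one and 15 within 100 bp.

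Sox3 scores at the edge of the rule overlapped between its sides. The closest region outside, chr6:20251968-20252736 (genome build v10.0) in the span of *pfkp* (a phosphofructokinase of glycolysis), ended 29 bp from a replicated Hdac1 peak and had a Sox3 score of 39.5. The next were chr4:94067407-94068192, 11081 bp from the forkhead gene *foxd2* (gap 48 bp, score 15.4), and chr2:11714251-11714888 in *get1* (gap 51 bp, score 12.4). Just inside the Hdac1 overlap were a peak in *erbb3* that shared 2 bp with an Hdac1 peak (score 20.1), one in *nnt* that shared 10 bp (14.8) and one near *colca2* that shared 19 bp (21.5). All 3 regions just outside met an Hdac1 peak in a DMSO library. For *pfkp* its fold enrichment over input was 9.86 at st9 and 6.66 at st10.5. For *get1* it was 13.8 at st10.5, where the Hdac2 peak reached 23.5.

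The single-library lists were the direct check of the name of the set. At st9, 2627 regions met an Hdac1 peak of DMSO-treated embryos (43.2%, 42.0 to 44.5%), against 8745 of the other Sox3 peaks (90.9%, 90.3 to 91.5%). At st10.5 the shares were 47.6% (46.4 to 48.9%) and 93.8% (93.3 to 94.3%). In TSA-treated embryos they were 44.9% and 82.7% at st9, and 54.7% and 92.2% at st10.5. Either DMSO list was met by 3518 regions (57.9%, 56.6 to 59.1%), both by 2003 (33.0%) and all 4 single-library Hdac1 lists by 1376 (22.6%). The other Sox3 peaks gave 96.2%, 88.5% and 76.9%. The single-library lists are much longer than the replicated ones. The DMSO lists hold 45185 peaks at st9 and 62985 at st10.5, where the replicated lists hold 5136 and 22681.

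The Hdac1 peaks found at these regions were lower than those at the other Sox3 peaks. Where a region met the DMSO list at st9, the highest peak met was enriched 5.41-fold at the median, with an interquartile range of 4.45 to 6.68, close to the 5.15 of the whole list. At the other Sox3 peaks the median was 9.01 (6.63 to 12.7). At st10.5 the medians were 5.27 at the regions and 11.8 at the other peaks. With only peaks of a −log10 q of at least 10 counted, the shares met fell to 13.9% at st9 and 22.8% at st10.5, against 73.4% and 87.9% of the other Sox3 peaks. Both sets were defined by Hdac1 peaks of stages that include these, so the choice itself favours a gap in other Hdac1 libraries. The gap between the sets was present in each of 4 classes of Sox3 score. In the lowest class, 38.3% of the regions and 87.1% of the other peaks met the st9 DMSO list, and in the highest class 50.6% and 94.7% did.

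Hdac2 was found at more of the regions at st9 than at st10.5, while at the other Sox3 peaks the order was the opposite. The st9 Hdac2 list met 3463 regions (57.0%, 55.7 to 58.2%) and the st10.5 list 2930 (48.2%, 47.0 to 49.5%). The other Sox3 peaks gave 87.0% at st9 and 96.5% at st10.5. Accordingly, 1426 regions (23.5%, 22.4 to 24.5%) met Hdac2 at st9 and not at st10.5, against 281 of the other Sox3 peaks (2.92%, 2.60 to 3.28%). The replicated Hdac1 list of st10.5, by which most peaks left the set, is of the same stage as the second Hdac2 list. Each Hdac2 list is 1 library, so stage and library cannot be told apart. The 1707 regions with no Hdac1 peak in any single library still met Hdac2 at one of the stages in 750 cases (43.9%, 41.6 to 46.3%). Of the 195 other Sox3 peaks with no such Hdac1 peak, 191 did (97.9%).

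**Figure D2:**
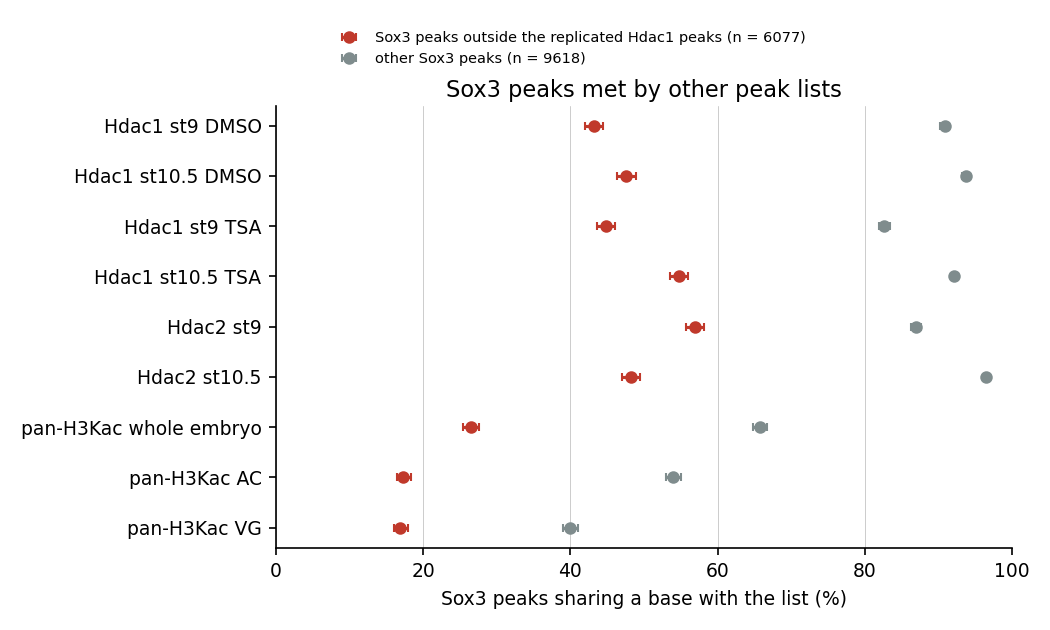
Share of Sox3 peaks (x axis, percent) that share at least 1 base with each of 9 peak lists (y axis). Red points are the 6077 Sox3 peaks outside the replicated Hdac1 peaks, grey points the other 9618, and bars are Wilson 95% intervals. The red points lie between 16.9% and 57.0%, each to the left of the grey point of the same list.

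Counted over the 4 Hdac1 and 2 Hdac2 lists from single libraries, the regions spread almost evenly. None of the 6 lists was met by 957 regions (15.7%, 14.9 to 16.7%), and all 6 were met by 964 (15.9%, 15 to 16.8%). Each number between held 13.0% to 14.5% of the regions. Of the other Sox3 peaks, 70.5% met all 6 and only 4 peaks met none. The median Sox3 score of the regions moved little along this scale, from 16 with no list met to 19.6 with all 6. At 860 regions (14.2%, 13.3 to 15.1%) neither Hdac1, Hdac2 nor pan-H3Kac had a peak in any list, against 3 of the other Sox3 peaks.

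**Figure D3:**
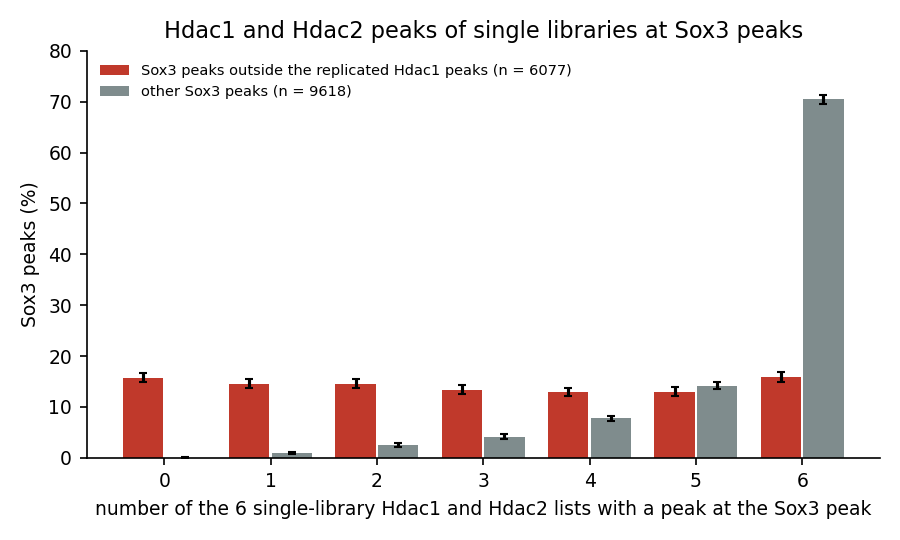
Share of Sox3 peaks (y axis, percent) by the number of the 6 single-library Hdac1 and Hdac2 lists that have a peak there (x axis, 0 to 6). Red bars are the Sox3 peaks outside the replicated Hdac1 peaks and grey bars the others, with Wilson 95% intervals. The red bars stay between 13.0% and 15.9%, and the grey bars rise to 70.5% at 6 lists.

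The strongest regions of the set were not free of Hdac1. The highest score, 138, belonged to chr5:11196294-11197055, 127554 bp from the lysophospholipase-like gene *lyplal1*, with signal values of 71.2 and 66.7 in the replicates and rank 24 in the whole Sox3 list. Its nearest replicated Hdac1 peak was 318109 bp away, yet the DMSO lists had Hdac1 peaks there with fold enrichments of 6.68 at st9 and 14.7 at st10.5. The region chr6:136464277-136465016, 221316 bp from *eif3h* (a translation initiation factor subunit), had a score of 108 and Hdac1 peaks of 9.86 and 16.8 in the same lists. In TSA at st10.5 the Hdac1 peak there reached 23.8, while the one at the region nearest to *lyplal1* was 11.7. A region in *st3gal2.2* (a sialyltransferase, chr10:42596582-42597239, score 105) lay 2406 bp from a replicated peak. It had DMSO peaks of 7.36 and 10.9 and one of 9.60 in TSA at st10.5.

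The other 3 of the top 6 had lower Hdac1 peaks in DMSO. A region in *cacna2d3* (a calcium channel subunit, chr4:149980334-149981296) had a score of 117, no Hdac1 peak in DMSO at st9 and one of 5.17 at st10.5. A region near LOC116408748 (chr2:10354295-10354993, score 105) had DMSO peaks of 5.41 and 6.46 and reached 16.3 in TSA at st10.5. One in *b3gat1l* (chr2:6617578-6618438, score 103) had 6.04 and 4.91 in DMSO. In TSA at st10.5 the regions in *cacna2d3* and *b3gat1l* had 6.01 and 5.72. Over the regions that met each st10.5 list, the median fold of the highest Hdac1 peak was 5.27 in DMSO and 5.44 in TSA. For comparison, the highest-scoring regions with no peak in any of the 9 lists, picked with these values in view, had scores of 67.0 (88182 bp from *klhl29*), 64.7 (in LOC116412437) and 62.8 (in *elfn1*, which encodes a synaptic leucine-rich repeat protein).

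Acetylated H3 was found at fewer of the regions than of the other Sox3 peaks, in whole embryos and in both explants. The pan-H3Kac list of whole embryos met 1608 regions (26.5%, 25.4 to 27.6%), against 6325 of the other Sox3 peaks (65.8%, 64.8 to 66.7%). In AC the shares were 17.3% (16.4 to 18.3%) and 54.0%, and in VG 16.9% (16 to 17.9%) and 40.0%. The other Sox3 peaks were thus acetylated more often in AC than in VG, and the regions about as often in both. By tissue, 706 regions were acetylated in AC alone (11.6%), 683 in VG alone (11.2%) and 345 in both (5.68%), while 4343 (71.5%) were in neither list. Of the other Sox3 peaks, 28.5% were in the AC list only and 14.4% in the VG list only. Where 50% of the shorter peak had to be shared, the shares of the regions were 14.2% in whole embryos, 10.4% in AC and 10.8% in VG.

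Acetylation moved with the single-library Hdac1 peaks and with the distance to genes. Among the regions with an Hdac1 peak in at least 1 single library, 32.3% (30.9 to 33.7%) met pan-H3Kac in whole embryos, and among those with none 11.5% (10.1 to 13.1%) did. Within 1 kb of a gene end, 309 of 581 regions (53.2%, 49.1 to 57.2%) were acetylated in at least one explant, against 25.9% (24.8 to 27.1%) of those farther away. The other Sox3 peaks had 84.3% and 64.7% in these classes. The median Sox3 score of the regions was almost the same by tissue of acetylation, at 17.6 for AC alone, 17.7 for VG alone, 18 for both and 17.4 for neither. The highest regions of the tissue classes, again picked with the values in view, included one 29413 bp from the signalling gene *wnt3a* that was acetylated in VG only (chr6:10048352-10049094, score 95.5). It lay 95 bp from a replicated Hdac1 peak. A region in *cic*, which encodes a transcriptional repressor (chr7:107509848-107510435, score 96.5), was acetylated in both, with a fold enrichment of 11.2 in AC and 5.25 in VG.

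The regions lay inside genes as often as the other Sox3 peaks but less often at gene ends. Positions were taken from the summit, and gene spans from the RefSeq annotation of the same assembly (v10.0), which was at hand without strand or exons. Of the 6076 regions on chromosomes, 3124 had the summit inside a gene span (51.4%, 50.2 to 52.7%), against 52.5% (51.5 to 53.5%). Within 1 kb of a gene end were 581 regions (9.56%, 8.85 to 10.3%), against 19.2% of the other Sox3 peaks. Summits between genes lay a median of 15985 bp from the nearest gene in the regions and 5941 bp in the other peaks. More than 50 kb from any gene were 814 regions (13.4%, 12.6 to 14.3%), against 5.82% (5.37 to 6.31%). One further region lies on a scaffold without annotated genes.

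Most regions stood alone. With regions joined when less than 10 kb apart, 5200 had no neighbour of the set, 360 groups held 2, and the largest group held 5. In that group, chr1:102292663-102308011 in LOC100494822, no region met an Hdac1 peak of any library or a pan-H3Kac peak, and 2 of the 5 met Hdac2 at st9. A group of 4 at chr4:26706409-26715290 near LOC116410389 was similar, with 2 regions in the st9 Hdac2 list only. A group of 4 between *gsx2*, a homeobox gene of the forebrain, and *pdgfra*, a growth factor receptor gene, was different (chr1:39971915-39988244). All 4 of its regions met both Hdac2 lists, all 4 met pan-H3Kac in whole embryos, 3 did so in VG and none did in AC. Hdac1 peaks of single libraries were met by 3 of them in DMSO at st9 and 2 at st10.5. In TSA they were met by 3 at st9 and 4 at st10.5.

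The genes nearest to the most regions were, with 1 exception, very long, and their RNA levels ranged widely. *lsamp*, which encodes an adhesion protein of neurons, was the nearest gene within 10 kb of 10 regions and spans 1313 kb. The adhesion genes *kirrel3* and *pcdh15* and the ADP-ribosylhydrolase gene *macrod2* had 9 regions each. They span 731, 710 and 1296 kb. *lrrc4c*, which encodes a synaptic ligand of netrin-G, had 8 regions in 651 kb and no other Sox3 peak and no replicated Hdac1 peak. The genes *ctnna2*, *pcdh11x*, *dmd.3*, *agbl4*, *adgrl3* and LOC100494822 had 6 regions each. The last spans 52.7 kb and the others 798 to 1193 kb. The level of *lsamp* was 0.0300 and 0.390 TPM (a level scaled to transcript length and library) in the AC libraries with DMSO and 0.640 and 0.110 in those of VG. That of *lrrc4c* was 0.650 and 1.61 TPM in AC and 4.29 and 7.50 in VG. At the other end, *dmd.3*, a dystrophin gene, had 65.9 and 59.8 TPM in AC and 75.2 and 73.7 in VG. Longer spans hold more peaks of any kind, and *macrod2* also had 17 other Sox3 peaks and 40 replicated Hdac1 peaks.

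Lists of known genes, chosen with earlier results of these data known, were set against the nearest-gene table. Of 3390 genes nearest to a region and with a unique symbol in the annotation (placed genes), 2125 were also nearest to a replicated Hdac1 peak (62.7%), against 39.0% of all placed genes. In most of the lists nearly every gene was near an Hdac1 peak, with or without a region, such as 21 of 21 neural plate, 18 of 18 epidermal and 16 of 18 Sox genes. Of 21 placed neural plate genes, 9 were nearest to at least 1 region, and all 9 also to a replicated Hdac1 peak. Of 18 placed genes of the Sox family 4 were nearest to a region, of 15 pluripotency and maternal genes 5, and of 18 epidermal genes 4, each with an Hdac1 peak as well. Among 21 mesendoderm genes 5 had a region and only *bix1.1*, a Mix-type homeobox gene, had no replicated Hdac1 peak. Of 26 genes of cell adhesion and axon guidance 13 had a region, with 26 regions in all. The axon guidance receptor genes *robo1* and *robo2* had 4 each. Of 10 housekeeping genes 2 had a region.

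Single loci beside developmental genes are given as examples. The regions described singly here all met the 6 single-library lists, as did 15.9% of all regions. Others beside such genes met fewer, such as those of *klf2* (2), *otx2* (3) and *mix1* (4), while those of *zic2* and *grhl3* met all 6. *sox13* had 5 regions, the strongest at chr2:68554696-68555166 (score 56.1), which lay 514 bp from a replicated Hdac1 peak and met all 6 single-library lists. The region of *sox3* itself (chr8:55336692-55337353, score 12.9) lay 9511 bp from the gene and 60 bp from a replicated Hdac1 peak, met all 6 lists as well, and stood beside 4 other Sox3 peaks and 11 Hdac1 peaks of that gene. The region inside *gata2*, a GATA factor gene (chr4:135408965-135410009, score 22.1), was 707 bp from one and had Hdac1 peaks in DMSO with fold enrichments of 7.31 at st9 and 10.6 at st10.5. The region of *bix1.1* (chr5:8107647-8108167, score 13.6) was 14874 bp from a replicated peak and also met all 6 lists, with Hdac1 at 9.33 and 4.71.

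RNA levels were then compared for genes sorted by these peaks. Each peak was assigned to the gene nearest to its summit, up to 10 kb away. This gave 1284 genes near the regions and near no replicated Hdac1 peak (region-only genes, 1491 regions), 2127 near both (2852 regions) and 8232 near Hdac1 peaks without such a region. The other 1733 regions on chromosomes had no gene so near. Protein-coding genes made up 88.2% of the region-only genes, and 63.2% of the 17130 genes near neither. Of the region-only genes, 1265 have a unique symbol in the RNA files. In AC with DMSO, 45.5% of them (42.8 to 48.3%) reached a mean of 1 TPM, with a median of 0.595 TPM. Of genes near both 75.7% did, and of genes near neither 29.0%. Of genes near Hdac1 without a region, which can be near other Sox3 peaks, 78.0% did. The region-only genes thus lay between genes near Hdac1 and genes near no such peak. The calling of peaks in whole embryos and the level in one tissue cannot be matched cell by cell, and in bulk explants fewer cells of a type and less RNA per cell cannot be told apart.

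The 16 RNA libraries held 16892304 to 54350327 expected counts, and 463 ribosomal RNA genes took 0.730% to 39.4% of them, with the highest shares in the second AC libraries of DMSO (35.0%) and TSA (39.4%). By animal cap and vegetal markers the explants matched their labels. All 6 animal cap markers were higher in both AC control libraries than in both VG control libraries of the same experiment, and all 7 vegetal markers were lower. The vegetal markers summed to 44.4 to 45.6 TPM in AC with DMSO and 5096 to 5115 TPM in VG. VG with DMSO also held 352 to 706 TPM of 4 mesoderm markers, of which *gsc* had 320 and 669. *foxi1* and *dlx3*, which mark ectoderm, were at 0 in both VG libraries with DMSO. Sums of markers moved with the inhibitors in AC. The animal cap markers summed to 1720 to 2635 TPM with DMSO and 435 to 916 with TSA, the vegetal markers to 166 to 300 with TSA, and 4 mesoderm markers to 5.36 to 12.6 with DMSO and 35.5 to 49.6 with TSA. With VPA the sums were 897 to 1104 against 1982 to 2426 TPM in water for the animal cap markers and 92.8 to 178 against 22.5 to 46.2 for the vegetal ones. Their part in the results below was not tested. The targets of the inhibitors were present in all libraries, *hdac1* at 424 to 818 TPM and *hdac2* at 28.6 to 74.5 TPM. *sox3* itself had 872 and 728 normalized CPM in AC and 180 and 185 in VG with DMSO (edgeR log2 2.13 ± 0.19, adjusted p = 5.91e-04). Values after ± are approximate standard errors (SE), the absolute log2 fold change divided by the square root of edgeR's F statistic.

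In AC with TSA, few region-only genes were called, at or below the rate of all genes. A gene was called at an adjusted p under 0.05 (edgeR's quasi-likelihood test with Benjamini-Hochberg adjustment over 15232 genes tested) and a fold change above 2. Of the 1265 region-only genes, 759 passed the filter on low counts, of which 7 rose (0.922%, 0.447 to 1.89%) and 3 fell (0.395%, 0.135 to 1.16%). Over all genes tested, 1.29% rose and 1.00% fell, which gives the background. Genes near both kinds of peak gave 1.48% and 1.11%, and genes near Hdac1 without a region 1.53% and 1.58%. The median log2 fold change of the region-only genes was 0.01, and that of all genes 0.00. Without AC DMSO replicate 1 or AC TSA replicate 2, 2 of the 10 calls were left, and without AC DMSO replicate 2 or AC TSA replicate 1, 3 were, with the lone library assumed to vary like the other groups. DESeq2 called 30 (4.05%, all genes 6.37%). The main fit has no replicate term, although deviations of same-numbered DMSO and TSA libraries in AC correlated at 0.80. A gene that was not called may still have changed.

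The 7 genes that rose included *nodal3.1*, which encodes a ligand of the Nodal family. It had 0 and 0.155 CPM (counts scaled to library size after TMM normalization) in AC with DMSO and 12.7 and 8.44 with TSA (edgeR log2 fold change 6.75 ± 0.67, approximate SE, adjusted p = 0.00858). The log2 value was 6.01 without AC DMSO replicate 1 and 10.98 without AC DMSO replicate 2, a wider spread than the ± value. VG libraries had 26.8 and 37.2 CPM with DMSO and 96.5 and 112 with TSA. *sia2*, a Siamois-type homeobox gene of the organizer, had 0 and 0.0518 CPM with DMSO and 2.12 and 0.895 with TSA. Its DMSO libraries held 2 counts, which gives a ratio of 42.3 (11.4 to 355, counting interval) and an edgeR adjusted p of 0.0316. Both genes belong to families of close copies, among which the authors' counting can split reads. *slc38a2*, an amino acid transporter gene, had 0.478 and 2.36 CPM with DMSO and 22.3 and 27.0 with TSA (edgeR log2 4.07 ± 0.69, adjusted p = 0.0364), and its log2 value was 3.35 and 5.69 without AC DMSO replicates 1 and 2. In all 3 genes both TSA libraries were above both DMSO libraries, which the rule that named them required. Named after their values were seen, LOC101734394 (edgeR log2 2.45 ± 0.19, adjusted p = 0.00571), the kinase gene *cdkl1* (3.1 ± 0.47, 0.0276), *sh3gl2*, which encodes an endophilin (2.33 ± 0.42, 0.0426), and LOC100488577 (2.18 ± 0.26, 0.0151) were the other 4. Only *nodal3.1* and LOC101734394 stayed called whichever of the 4 libraries was left out.

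The 3 genes that fell with TSA were *muc4*, *birc2* and *mplkip*. *muc4*, a membrane mucin gene, had 25.5 and 26.6 CPM with DMSO and 3.84 and 4.53 with TSA (edgeR log2 −2.63 ± 0.30, adjusted p = 0.0131), while VG with DMSO had 0.372 and 0.282 CPM. *birc2*, which encodes an inhibitor of apoptosis, had 95 and 123 CPM with DMSO and 26.1 and 11.1 with TSA (edgeR log2 −2.55 ± 0.45, adjusted p = 0.0399). *mplkip*, named for its interaction with a mitotic kinase, had 62.0 and 58.8 CPM with DMSO and 23.3 and 20.2 with TSA (edgeR log2 −1.47 ± 0.19, adjusted p = 0.0188). The groups did not overlap in any of the 3, which the rule that named them also required. Scores of the regions beside the genes called with TSA in AC lay on both sides of 17.4, the median of all regions. The 2 regions of *birc2* had 15.7 and 23.0 and met 4 and 2 of the 6 single-library lists. The one of *cdkl1* had 22.4 and met 2. Those of *muc4*, *mplkip* and LOC101734394 had scores of 12, 13.9 and 12 and met none of the 6 single-library lists. The one of *nodal3.1* (score 12) met the st9 Hdac2 list alone, and the one of *slc38a2* (14.3) met 5 of the 6.

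**Figure D4:**
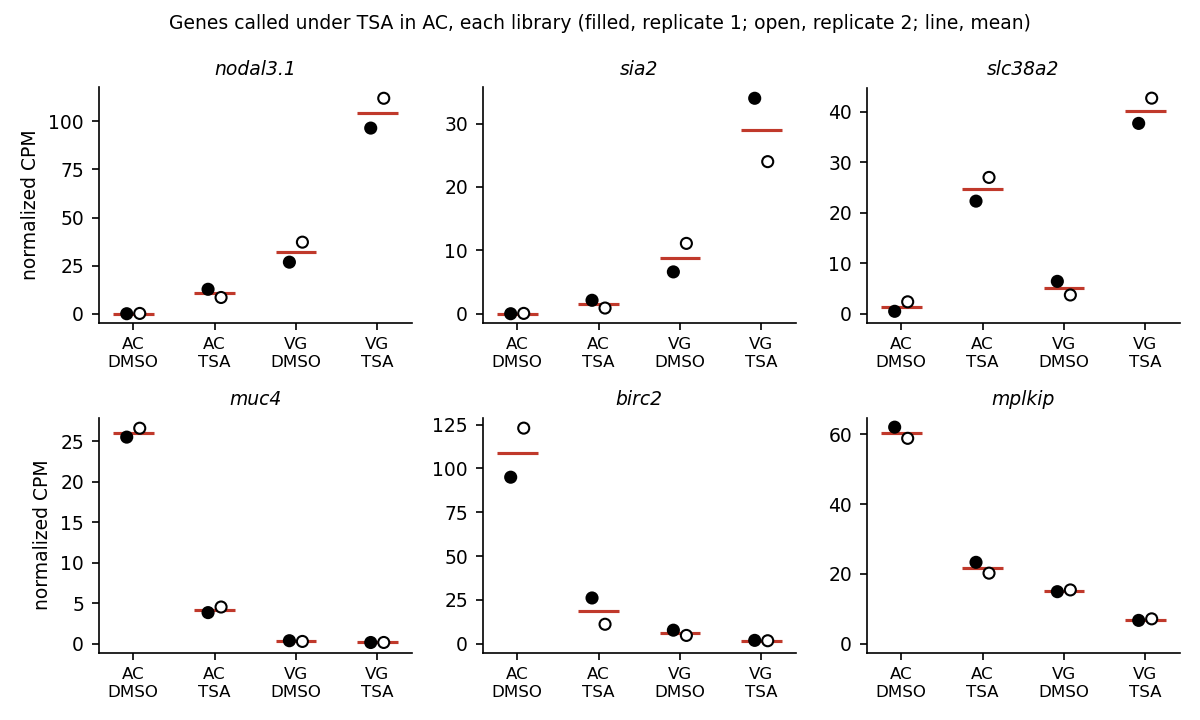
CPM after TMM normalization (y axis, linear and separate for each gene) of the 3 region-only genes with the largest rise and the 3 with the largest fall under TSA in AC, in all 8 libraries of the TSA experiment (x axis). Filled circles are replicate 1, open circles replicate 2, and lines the mean of 2. In AC the TSA libraries lie above the DMSO libraries for *nodal3.1*, *sia2* and *slc38a2* and below them for *muc4*, *birc2* and *mplkip*. The rule that picked these genes required such a separation.

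VPA in AC gave a similar count of calls on another set of libraries. Of 769 region-only genes tested, 5 rose (0.650%, 0.278 to 1.51%) and 3 fell (0.390%, 0.133 to 1.14%), where 1.36% of all 15166 genes rose and 0.745% fell (edgeR, as above). The largest rises were in LOC100488577, which had 41.4 and 25.5 CPM in water and 145 and 150 with VPA (edgeR log2 2.14 ± 0.37, adjusted p = 0.0424), in LOC100490141 (2.08 ± 0.36, 0.0433) and in *arrdc2*, an arrestin-domain gene, with 31.9 and 16.2 CPM in water and 103 and 81.5 with VPA (1.94 ± 0.35, 0.0462). The other 2, LOC101734394 (15.3 to 54.8 CPM on average) and *tank*, which encodes a TRAF-binding protein (4.40 to 16), were named after their values were seen. The 3 genes that fell were *adgrf1*, an adhesion receptor gene (edgeR log2 −2.31 ± 0.43, adjusted p = 0.0495), *mplkip* with 94.5 and 72.3 CPM in water and 35.8 and 42.7 with VPA (−1.09 ± 0.19, 0.0446) and the zinc finger gene *znf740* (−1.07 ± 0.20, 0.0477). All 8 adjusted p-values were close to the threshold. Without any one of the 4 libraries 0 or 1 region-only genes were called, and none of these was among the 8, whereas DESeq2 called 28 (3.95%, all genes 6.31%) and the fit with a replicate block 37 (4.81%, all genes 6.57%). LOC100488577, LOC101734394 and *mplkip* were called in the same direction under both inhibitors. The share of all genes called under both is not given here, so this is not read as a trait of region-only genes.

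In VG no region-only gene passed the threshold in the edgeR fit without a replicate block. With TSA 0 of 759 were called, where 0% of all genes rose and 0.0131% fell. At an unadjusted p under 0.05, 14 were higher (1.84%, all genes 1.81%) and 11 lower (1.45%, all genes 2.32%), and DESeq2 called 9 (1.29%, all genes 1.46%). With VPA 0 of 769 were called by edgeR and 0% of all genes in either direction. At an unadjusted p under 0.05, 33 were higher (4.29%, all genes 4.66%) and 15 lower (1.95%, all genes 4.17%), and DESeq2 called 15 (2.18%, all genes 2.61%). With the replicate number as a block, a single term for both tissues, edgeR called 8 with VPA (1.04%, all genes 1.59%) and 0 with TSA. Whether an inhibitor acted differently in AC and VG was tested with an interaction term in edgeR, which no region-only gene passed. The smallest adjusted p was 0.0573 with TSA and 0.751 with VPA, and 24 (3.16%) and 29 (3.77%) genes had an unadjusted p under 0.05, where 5.21% and 4.86% of all genes did.

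Between the tissues themselves, region-only genes were more often higher in VG than in AC. Of 759 genes, 98 were higher in VG (12.9%, 10.7 to 15.5%) and 43 higher in AC (5.67%, 4.23 to 7.54%) in the DMSO libraries. Over all genes tested the shares were 12.1% and 9.66%. The VG share was thus near the background and the AC share below it, as it was for genes near neither kind of peak (6.57%). Genes near both gave 11.6% and 13.3%. The controls of the VPA experiment, compared after these values were seen, gave 74 genes higher in VG (9.62%, where all genes gave 8.89%) and 33 higher in AC (4.29% against 6.05%). Of the calls in DMSO, 47 of 98 and 20 of 43 were also called in water in the same direction (63.5% and 60.6% of the calls in water), and 0 in the opposite one. The same shares over all genes are not given here, so these counts are not read as a trait of region-only genes. Deviations of same-numbered AC and VG libraries from their group means correlated at −0.05 in DMSO and 0.58 in water. In DMSO, a difference in preparation between the AC and VG libraries cannot be told apart from tissue. Without each library in turn, 74 to 103 of the region-only genes were called in place of 141. The lowest counts, 74 and 75, came without VG DMSO replicate 1 and replicate 2.

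**Figure D5:**
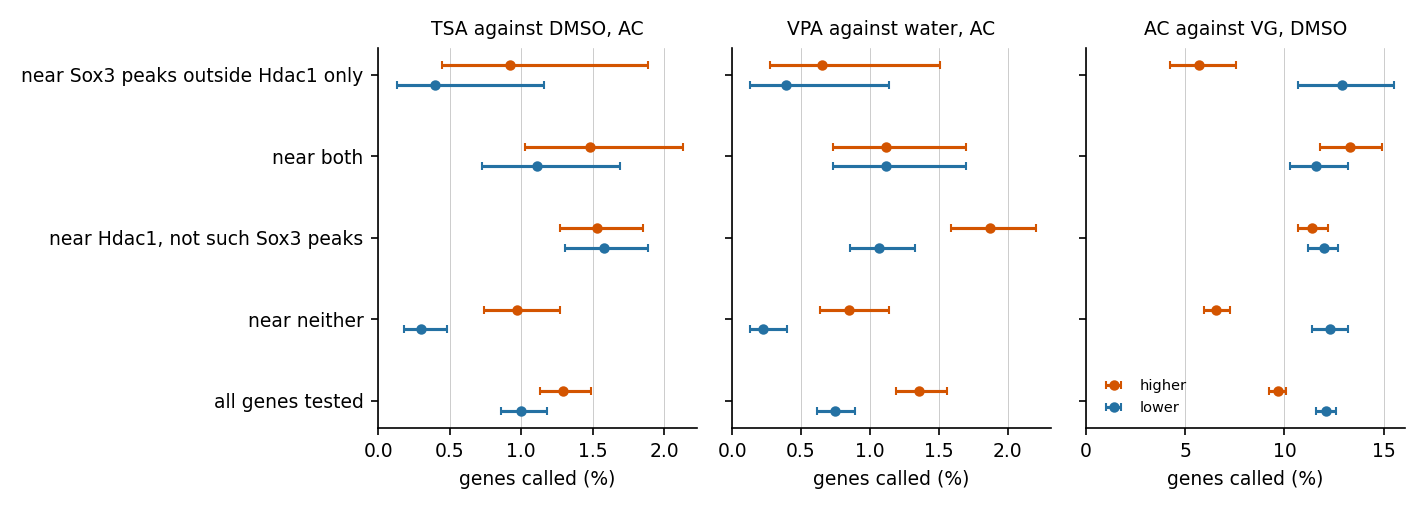
Share of genes called (x axis, percent, a separate scale in each panel) by edgeR in 3 comparisons for genes sorted by the peaks they are nearest to (y axis). Orange points are genes higher and blue points genes lower in the first named group, with Wilson 95% intervals. In AC against VG, 5.67% of the genes near the regions only were higher in AC and 12.9% were lower, where all genes gave 9.66% and 12.1%.

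On the VG side the 3 largest differences between AC and VG with DMSO among region-only genes were in *bix1.1*, *sia3* and *gda*. *bix1.1*, the Mix-type gene, had 0 and 0.181 CPM in AC and 74.0 and 94.7 in VG with DMSO (edgeR log2 −9.53 ± 0.81, adjusted p = 5.20e-04). Its log2 value was −8.80 without AC DMSO replicate 1 and −14.00 without AC DMSO replicate 2. *sia3*, a Siamois-type homeobox gene, had 0 counts in both AC libraries and 14.8 and 22.4 CPM in VG, at least 179-fold higher when 3 counts per library are taken as the floor (edgeR adjusted p = 5.20e-04). *gda*, which encodes guanine deaminase, was at least 21.2-fold higher in VG, with 0.744 and 3.66 CPM there (edgeR adjusted p = 0.0357). These 3 genes were also higher in VG in water, by at least 440-fold, 28-fold and 19.7-fold. *bix1.1* and *sia3* stayed called whichever DMSO library was left out and *gda* in none of these fits (edgeR adjusted p 0.0577 to 0.110). The genes *bix1.1* and *sia3* have close copies, among which reads can be split. On the AC side the 3 largest differences in DMSO were not called in water. LOC116410416 had 44.9 and 39.3 CPM in AC and 0 counts in VG with DMSO, at least 300-fold higher. In water its second libraries had 24.9 CPM in AC and 36.8 in VG, and its first ones 0.417 and 0.801. *pla2g12b*, a phospholipase-like gene, had 10.1 and 12.2 CPM in AC and 0 counts in VG with DMSO (at least 79.5-fold), and in water 5.52 and 19.1 CPM in AC and 9.51 and 15 in VG. *proc.2*, which encodes protein C, was at least 19.7-fold higher in AC with DMSO (4.34 and 1.19 CPM, called in 1 of the 4 fits without a library), and in water had 1.93 and 1.23 CPM in AC and 0.150 and 0.0419 in VG (edgeR adjusted p = 0.0501).

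Genes with a region acetylated in one tissue alone were more often higher in that tissue when all genes near the regions were counted. Of 439 tested genes with a region acetylated in AC alone and none in VG alone, 20.3% were higher in AC and 11.6% higher in VG. For 364 genes with a region acetylated in VG alone and none in AC alone, 8.79% were higher in AC and 18.4% in VG. Both sets can hold genes that also have a region acetylated in both tissues. Genes near regions of which none was in an explant list gave 8.62% and 11.1%. These sets include genes near replicated Hdac1 peaks. Among region-only genes, 7 of 89 in the AC set were higher in AC (7.87%) and 15 higher in VG (16.9%). In the VG set, 7 of 97 were higher in AC (7.22%) and 20 in VG (20.6%). Region-only genes with no region in either explant list, which the whole-embryo list can still meet, gave 5.79% and 11.2%. These were close to the 5.67% and 12.9% of all region-only genes. The difference between these sets was not tested.

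With TSA in AC, 10 of 18 epidermal genes fell, where 1.00% of all genes did, and the rest did not pass the test (edgeR, median log2 fold change of the list −2.09, of all genes 0.00). All 18 were near replicated Hdac1 peaks, 4 were also near a region, and 3 of these 4 fell. *gata2* had 219 and 203 CPM with DMSO and 2.88 and 2.81 with TSA (edgeR log2 −6.21 ± 0.29, adjusted p = 0.00111). *ventx1.2*, a ventral homeobox gene, went from 122 and 76.1 CPM to 1.44 and 1.1 (−6.29 ± 0.46, 0.00571), and *grhl3*, which encodes a grainyhead factor of the epidermis, from 444 and 442 CPM to 134 and 71.1 (−2.11 ± 0.30, 0.0240). With VPA 7 of 18 epidermal genes fell, *gata2* and *grhl3* among them, where 0.745% of all genes did. In DMSO, 12 of the 18 were higher in AC than in VG and 2 lower, where 9.66% and 12.1% of all genes were. *gata2* was 1 of those lower in AC (edgeR adjusted p = 0.00607). *grhl3* was not called with VPA without any one of the 4 libraries (edgeR adjusted p 0.0606 to 0.247). Among the named genes of other lists, TSA raised *sox9* (edgeR log2 2.72 ± 0.37, adjusted p = 0.0214) and *myc* (1.27 ± 0.19, 0.0276) and lowered *otx2*, a head homeobox gene, from 16.1 and 8.50 CPM to 0.919 and 0.997 (−3.67 ± 0.37, 0.00909). *gata2* and *ventx1.2* stayed called with TSA whichever AC library was left out, *grhl3* and *otx2* in 2 of these 4 fits (edgeR adjusted p up to 0.0814 and 0.0550), and *sox9* and *myc* in none (0.05 to 0.0849 and 0.0507 to 0.123).

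The other lists, chosen with earlier results known, are given as counts beside the 1.29% of all genes that rose with TSA in AC and the 1.00% that fell. Of 16 genes of the Sox family tested 2 rose (median log2 −0.05), and of 21 neural plate genes 2 rose and 4 fell (0.12). Of 15 pluripotency and maternal genes 2 rose and 1 fell (−0.30), and of 25 adhesion and axon guidance genes 4 rose and 1 fell (0.19). Those 5 adhesion genes had no region nearby. Of 21 mesendoderm genes 3 rose with TSA in AC, none of them near a region, with a median log2 of 1.38. This list does not hold *nodal3.1* or *sia2*, region-only genes that also rose with TSA in AC. In the DMSO libraries 19 of the 21 were higher in VG than in AC, including all 5 near a region, where 12.1% of all genes were. With VPA in AC 1 mesendoderm gene rose, and 1 neural plate and 1 adhesion gene fell, none of them near a region. *actb*, the housekeeping gene of cytoplasmic actin, was the one gene of its list near a region and no replicated Hdac1 peak. It was higher in AC than in VG (397 and 430 against 97.7 and 105 CPM, edgeR adjusted p = 7.73e-04) and was not called with either inhibitor.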

How the data were processed

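The authors aligned ChIP-seq reads with Bowtie2 2.4.4 to the *X. tropicalis* v10.0 genome and called peaks with MACS2 2.7.1. The deposited lists give each peak's fold enrichment (a ratio to input) and, as the authors' MACS2 wrote it, −log10 q. The deposited Sox3 list holds a score per replicate and their sum. pan-H3Kac lists hold peaks present in both replicates, with the second explant replicates downsampled to 25% by the authors. The deposited expected counts and the deposited TPM values per gene were made by the authors with STAR 2.7.3a and RSEM 1.3.3. Ribosomal RNA genes stayed in both.

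The regions, gene lists and rules were chosen with earlier results of these data known. Overlap means at least 1 shared base. Named regions are the 6 of highest score, the 3 nearest to a replicated Hdac1 peak and the 3 Sox3 peaks sharing fewest bases with one. Named genes are *sox3*, *hdac1* and *hdac2*, those nearest to most regions, up to 4 per gene list (by number of regions, then mean TPM), and the 3 largest non-overlapping changes per comparison and direction among region-only genes. Of 28850 gene IDs, 26410 matched a symbol placed once in the annotation. Rounded expected counts were fitted with edgeR 4.0.16 (R 4.3.3; filterByExpr, TMM, quasi-likelihood, a mean per group, 8 libraries per experiment). The fit was tested on simulated data. Shares and overlaps were computed with Python 3.11.15, numpy 2.4.6 and pandas 2.3.3. Alternatives were DESeq2 1.42.0, RLE normalization, no filter, a replicate block, each library left out, and distances of 5 and 50 kb. For peaks they were an overlap of 50%, Hdac1 peaks widened by 500 bp, the stronger Sox3 peaks, a −log10 q of at least 10, midpoints and 2 kb. Genome sequence, motifs, exons and strand were not analysed here.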

Additional observations from a re-analysis of the deposited data

Results flagged for a closer look

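The effect of TSA on *gata2*, a gene near 1 Sox3 peak outside the replicated Hdac1 peaks, 2 other Sox3 peaks and 6 Hdac1 peaks, differed between the tissues. The log2 change in AC minus that in VG was −5.18 ± 0.35 (approximate SE as above, edgeR interaction, adjusted p = 0.0129). In VG the gene had 613 and 519 CPM with DMSO and 335 and 219 with TSA. The same difference for VPA was −5.65 ± 0.36 (adjusted p = 0.0180), with 547 and 646 CPM in VG in water and 336 and 344 with VPA. For *ventx1.2* the difference under TSA was −5.76 ± 0.55 (edgeR adjusted p = 0.0303), with 145 and 89.9 CPM in VG with DMSO and 97.8 and 64.2 with TSA.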

How the results depend on the processing

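The number of regions was 6105 with an overlap of 50% and 5841 with Hdac1 peaks widened by 500 bp. It was 2559 with the DMSO lists added to the rule, 1935 among Sox3 peaks above the median score and, chosen after seeing the data, 1707 with all 4 single-library Hdac1 lists added. With a −log10 q of at least 10, the shares of regions met were 13.9% (Hdac1 DMSO st9), 22.8% (st10.5), 20.8% (Hdac2 st9), 18.7% (st10.5), 24.3% (pan-H3Kac whole embryo), 15.2% (AC) and 15.6% (VG). With an overlap of 50% they were 41.7% and 46.2% for Hdac1 DMSO, 14.2% in whole embryos, 10.4% in AC and 10.8% in VG for pan-H3Kac. Above the median Sox3 score they were 47.8% and 51.3% (Hdac1 DMSO), 68.1% and 52.1% (Hdac2) and 28.8% (pan-H3Kac whole embryo), with 47.8% inside gene spans and 7.39% within 1 kb of a gene end. Within 2 kb of a gene end were 15.6%. The cause of these moves was not tested beyond each alternative's own construction.

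Calls among region-only genes changed with the test, the block and the libraries kept. DESeq2 called 30 (TSA in AC), 9 (TSA in VG), 28 (VPA in AC) and 15 (VPA in VG), where edgeR called 10, 0, 8 and 0. All 10 and all 8 calls were among those of DESeq2. No filter gave 17 for VPA in AC. Leaving out each library in turn gave 2 to 3 (TSA in AC), 0 to 0 (TSA in VG), 0 to 1 (VPA in AC), 0 to 0 (VPA in VG) and 74 to 103 calls (AC against VG, 141 in all libraries). The cause was not tested. Libraries of different groups share a replicate number, which the labels do not tie to a clutch. The fit with the replicate block called 12 (TSA in AC), 0 (TSA in VG), 37 (VPA in AC), 8 (VPA in VG) and 171 (AC against VG). It shared 8 of the 10 calls with TSA in AC, without *sia2* and *slc38a2* (edgeR adjusted p 0.0518 and 0.0512), and all 8 with VPA in AC. Deviations of same-numbered libraries correlated at 0.46 to 0.63 in the VPA experiment. In the TSA experiment they did so at 0.80 between the AC groups and 0.78 between the VG groups, and at −0.10 to −0.05 across tissues. The block is a single term for AC and VG together. In the TSA experiment it therefore cannot follow replicate shifts that differ between the tissues, and the main fit has no replicate term.

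The main limits are 2 libraries per group, single-library Hdac2 and treated Hdac1 lists, peak lists without reads, and gene assignment by distance alone.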
